A study of Mus musculus with 7 samples.

Results

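Brown adipose tissue of the mouse was compared with its white counterparts, using 3 of the 7 tissue libraries of the series: interscapular brown adipose tissue (BAT), visceral adipose tissue (VAT) and subcutaneous adipose tissue (SCAT). Every library came from wild-type mice, labelled C57BL/6 and named C57BL/6N in the study, that were 36 weeks old and on the diet labelled NCD, and each tissue has 1 library. The other 4 libraries are liver, kidney, cortex and skeletal muscle. Total RNA was depleted of ribosomal RNA and sequenced from directional libraries. Sex and the number of animals per library are not given in the labels. Expression is given as FPKM, fragments scaled for transcript length and for the number of mapped fragments, without the fragment counts behind it, so the depth of each library is unknown. Without replicates, every difference is a difference between libraries and has no replicate check, and no p-value is given.

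For each named gene, the BAT value was set against the higher and against the lower of the VAT and SCAT values. Of 50354 gene names in the table, 15423 had at least 1 FPKM in BAT, VAT or SCAT and were compared, among them 12727 protein-coding genes and 872 long noncoding RNAs (lncRNAs). A gene was counted as higher in BAT when it had at least 1 FPKM there and a log2(FPKM + 0.1) at least 2, that is 4-fold, above the higher white depot. It was counted as lower in BAT when the lower white depot had at least 1 FPKM and was at least 2 above BAT on the same log2 scale. With the higher white depot as the reference, a white-depot value raised by tissue dissected along with the fat can hide a gene that is high in BAT. With the lower white depot as the reference, a gene has to be high in both white depots to count as lower in BAT.

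Brown fat turns fuel into heat. Uncoupling protein 1 lets protons flow back into the mitochondrial matrix without making ATP, so the respiratory chain runs fast and burns fatty acids released from many small lipid droplets. The tissue is switched on by noradrenaline from sympathetic nerves, while white fat mainly stores triglyceride in a single large droplet and secretes hormones such as leptin.

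The libraries matched their labels by these markers. Ucp1, the uncoupling protein itself, had 6552 FPKM in BAT, 0.309 in VAT and 0.324 in SCAT. Cidea, a lipid droplet protein typical of brown adipocytes, had 832 FPKM in BAT, 0.786 in VAT and 3.10 in SCAT. Both genes were high in BAT and low in both white depots. The log2 ratio of BAT over the higher white depot was 13.92 for Ucp1 and 8.02 for Cidea. On GRCm38, the Ucp1 locus spans 83165081 to 83299146 on chromosome 8 and the Cidea locus 67289253 to 67367794 on chromosome 18. These bounds are shared with loci of other genes and are not those of the single genes. The others are Gm10645, Gm17999 and Tbc1d9 for Ucp1, and B430212C06Rik and Impa2 for Cidea. The table holds a second Ucp1 locus with the same bounds, which had 5529 FPKM in BAT. Leptin (Lep), the hormone of white adipocytes, had 51.6 FPKM in VAT, 26.6 in SCAT and 2.02 in BAT, and adiponectin (Adipoq), made by all adipocytes, had 330 in VAT, 110 in SCAT and 258 in BAT.

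**Figure D1:**
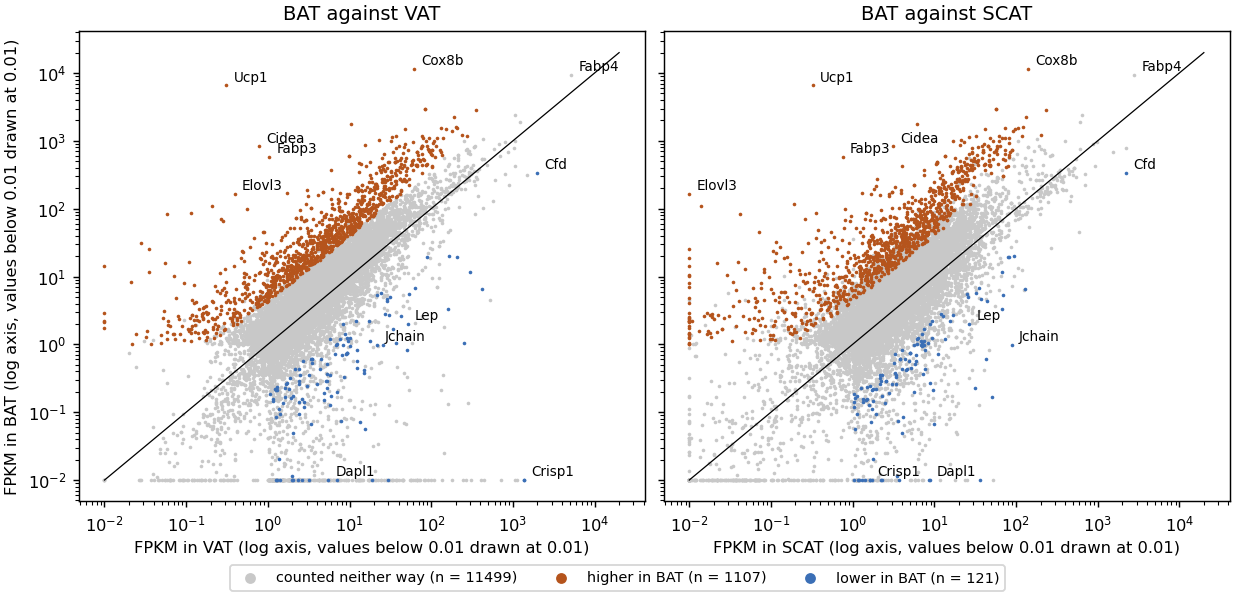
FPKM in BAT (vertical) against FPKM in VAT (left) and in SCAT (right) for 12727 protein-coding genes, both axes on log scales with values below 0.01 drawn at 0.01 and equal values on the line. The 1107 genes counted higher in BAT reach far above the line, with Ucp1 the farthest from it, and 121 genes were counted lower.

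By this rule, far more genes were higher than lower in BAT. Among all named genes compared, 1303 (8.45%) were counted higher in BAT and 245 (1.59%) lower. Among protein-coding genes the numbers were 1107 (8.7%) higher and 121 (0.951%) lower. At 16-fold, 123 protein-coding genes were higher in BAT and 15 lower, and at 64-fold 17 were higher and 0 lower. By the same rule applied to the other libraries, VAT had 593 protein-coding genes higher than both other adipose libraries and 6 lower, and SCAT had 409 higher and 93 lower. The genes higher in BAT had a median of 33.5 FPKM in BAT and 4.61 FPKM in the higher white depot. The split between higher and lower depended on the reference. Against VAT alone 1429 named genes were higher in BAT and 1154 lower, and against SCAT alone 2172 and 1138. With the other white depot as the reference in each direction, 2298 were higher and 2047 lower.

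The direction of these counts also leans on the scale of the libraries. The median protein-coding gene was 0.29 higher in BAT than in the higher white depot on the log2 scale, 0.47 higher than in VAT and 0.58 higher than in SCAT. Median ratio scaling, which brings the typical gene of the 3 libraries to one level, subtracts offsets of 0.40 from BAT, -0.21 from VAT and -0.27 from SCAT. After it, 771 named genes were higher in BAT and 447 lower, so that the share of counted genes that were higher went from 84.2% to 63.3%. Of 237 list members and other genes chosen by rule that were counted higher, 205 were still counted. A shift of this sign can only add to the genes counted lower.

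The white depots resembled each other more than either resembled BAT. Between VAT and SCAT, 1248 protein-coding genes (9.81%) were at least 4-fold apart in either direction, against 2092 (16.4%) between BAT and VAT and 2614 (20.5%) between BAT and SCAT. Of the genes counted higher in BAT, 892 of 1107 (80.6%) had a higher value in VAT than in SCAT. So did 74 of the 121 counted lower (61.2%). The median protein-coding gene was itself 0.163 higher in VAT than in SCAT on the log2 scale. The share with VAT above SCAT over all protein-coding genes was not computed. A further 829 protein-coding genes (6.51%) were at least 4-fold above the lower white depot but not above the higher one. VAT was the higher depot for 745 of them and SCAT for 84. In the other direction, the higher but not the lower white depot was at least 4-fold above BAT for 1345 (10.6%). There VAT was the higher depot for 751 and SCAT for 594.

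Genes of heat production and brown identity were mostly higher in BAT. Of 40 such genes, 36 were compared and 28 (77.8%) were counted higher in BAT, against 8.7% of all protein-coding genes, and 0 were counted lower. Their median log2 ratio over the higher white depot was 4.07. The list was made of genes known for brown fat, so its direction is no independent evidence. Fabp3, a carrier of fatty acids inside oxidative cells, had 583 FPKM in BAT, 1.04 in VAT and 0.755 in SCAT. Otop1, a proton channel, had 85.5 FPKM in BAT, 0.115 in VAT and 0.353 in SCAT. Both were more than 7 log2 units higher in BAT than in either white depot, 9.0 for Fabp3 and 7.56 for Otop1. Kcnk3, a potassium channel, had 95.1 FPKM in BAT against 2.45 in VAT and 2.21 in SCAT. Letmd1, a mitochondrial protein, had 155 FPKM in BAT against 3.14 and 2.83. Zic1, a patterning factor of the dorsal trunk that marks interscapular brown fat, had 2.12 FPKM in BAT, was listed at 0 in VAT and had 0.00299 in SCAT.

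**Figure D2:**
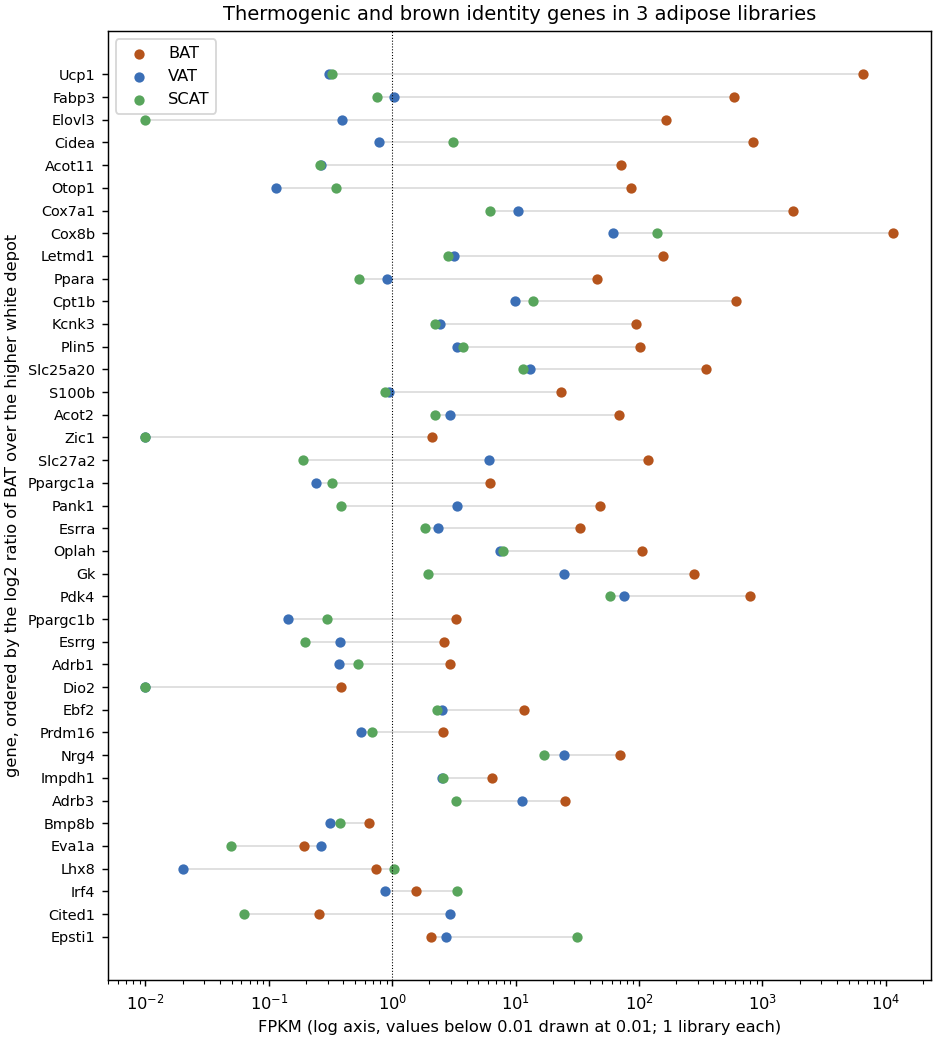
FPKM (log axis, values below 0.01 drawn at 0.01) of 39 thermogenic and brown identity genes in BAT, VAT and SCAT, 1 library each, ordered by the log2 ratio of BAT over the higher white depot; the dotted line marks 1 FPKM. From Ucp1 down to Adrb1 the BAT point lies far to the right of both white depots, and for Epsti1, Cited1, Irf4, Lhx8 and Eva1a a white depot lies to the right of BAT.

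Several well-known brown fat genes were not among them. Prdm16, the coregulator that fixes brown fate, had 2.59 FPKM in BAT, 0.560 in VAT and 0.681 in SCAT, a log2 ratio of 1.78. Dio2, which makes active thyroid hormone inside brown adipocytes, stayed below 1 FPKM, with 0.387 in BAT, 0.00231 in VAT and 0 in SCAT. Bmp8b, a growth factor made by active brown fat, was also below 1 FPKM in all of these libraries. For other genes 1 white depot was high. Irf4, a transcription factor of adipocytes and lymphocytes, had 1.57 FPKM in BAT, 0.872 in VAT and 3.34 in SCAT. Lhx8, a brown fat marker, had 0.736 FPKM in BAT, 0.0200 in VAT and 1.03 in SCAT. Epsti1, an interferon-induced gene, had 2.05 FPKM in BAT, 2.72 in VAT and 31.3 in SCAT. Cited1, used as a marker of beige fat, had 2.91 FPKM in VAT, 0.253 in BAT and 0.0624 in SCAT.

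Adrenergic receptor genes differed in how far they separated the depots. Of 11 genes of adrenergic and thyroid input compared, 6 (54.5%) were counted higher in BAT, against 8.7% of all protein-coding genes, and 0 lower. With median ratio scaling 3 were counted higher. Adra1a, the alpha-1A receptor, had 20.0 FPKM in BAT, 1.13 in VAT and 0.733 in SCAT, and Adrb1, the beta-1 receptor, had 2.91, 0.373 and 0.530. Adrb3, the adipocyte beta-3 receptor, had 25.4 FPKM in BAT, 11.3 in VAT and 3.26 in SCAT, which is 1.15 above the higher and 2.92 above the lower white depot on the log2 scale. Of these receptors Adrb3 had the highest FPKM in BAT and the smallest log2 ratio over the higher white depot. Downstream of the receptors, Adcy3, an adenylyl cyclase that makes cyclic AMP, had 73.2 FPKM in BAT against 2.24 in VAT and 3.43 in SCAT. The regulatory subunit Prkar2b of the kinase that cyclic AMP activates had 373 FPKM in BAT against 60.2 and 41.3. Thyroid hormone receptors Thra and Thrb were 1.31 and 0.96 above the higher white depot.

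Of 32 transcription regulators compared, 9 (28.1%) were counted higher in BAT, where the share over all protein-coding genes was 8.7%, and 0 lower. Their median log2 ratio was 1.21, or 0.54 with median ratio scaling, where 7 were counted. Of the factors of oxidative metabolism, Ppara, Ppargc1a, Ppargc1b, Esrra and Esrrg were among the 9, and Tfam, Nrf1 and Ppard, with log2 ratios of 1.2, -0.37 and -0.11, were not. Ppara, the receptor that drives fatty acid oxidation genes, had 45.6 FPKM in BAT, 0.902 in VAT and 0.537 in SCAT. Ppargc1a, a coactivator of mitochondrial biogenesis, had 6.20 FPKM in BAT, 0.240 in VAT and 0.328 in SCAT. The estrogen-related receptor Esrra, a partner of this coactivator, had 33.3 FPKM in BAT, 2.36 in VAT and 1.85 in SCAT. Factors shared by all adipocytes lay closer together. Pparg, the master regulator of fat cell formation, had 158 FPKM in BAT, 49.8 in VAT and 41.4 in SCAT, a log2 ratio of 1.67, and Ebf1 a log2 ratio of 0.60. Among genes that mark body position, 1 of 19 compared (5.26%), Zic1, was counted higher, a share below the 8.7% of all protein-coding genes. Tbx15, a factor of brown and subcutaneous fat, had 2.28 FPKM in BAT, 1.61 in SCAT and 0.0943 in VAT, while Wt1 and Tcf21, which mark visceral fat, were listed at 0 in BAT, with 1.82 and 1.12 FPKM in VAT and 0.0553 and 0.00495 in SCAT.

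The respiratory chain was higher in BAT almost as a whole. Of 83 genes of the oxidative phosphorylation complexes, 82 were compared, all but Cox4i1. Of these 82, 73 (89%) were counted higher in BAT, against 8.7% of all protein-coding genes, and 0 lower. BAT lay above both white depots for 80 of the 82, where over all protein-coding genes it did for 59%. The median log2 ratio over the higher white depot was 3.07 and ranged from -1.52 to 7.40. By complex, 36 of 37 genes were counted for complex I, 4 of 4 for complex II, 9 of 9 for complex III, 12 of 15 for complex IV and 12 of 17 for complex V. The exception in complex I was Ndufa7, with a log2 ratio of 1.81. Cytochrome c oxidase held the most extreme genes. Cox8b, the heart and muscle form of subunit 8, was the most abundant protein-coding gene of BAT among those compared. It had 11478 FPKM in BAT against 61.6 in VAT and 140 in SCAT. Cox7a1, the heart and muscle form of subunit 7a, had 1780 FPKM against 10.4 and 6.23. The general forms Cox8a and Cox7a2 had 436 and 687 FPKM in BAT and log2 ratios of 2.48 and 2.81, against 6.36 for Cox8b and 7.40 for Cox7a1.

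Of the 9 oxidative phosphorylation genes not counted, 5 were in the ATP synthase, and those of cytochrome c oxidase were Cox4i2, Cox6b2 and Cox7a2l, with log2 ratios of 1.29, 1.05 and 1.28. Atp5g1, which codes for the proton-carrying c subunit, had 24.5 FPKM in BAT, 32.8 in VAT and 12.4 in SCAT. Its sister genes Atp5g2 and Atp5g3, coding for the same mature protein, had 122 and 144 FPKM in BAT and log2 ratios of 1.90 and 1.30. The other ATP synthase genes not counted were Atp5j, with a log2 ratio of 1.99, and Atpif1, the inhibitor of the enzyme, with 11.3 FPKM in BAT, 32.6 in VAT and 11.2 in SCAT. By contrast the catalytic subunits Atp5a1 and Atp5b had 1117 and 2240 FPKM in BAT and log2 ratios of 3.59 and 3.55. Atp5g1 and Atpif1 thus lay below VAT, while every other ATP synthase gene compared lay above both white depots. In skeletal muscle Atp5g1 had 907 FPKM, so that BAT held 2.70% of the muscle value, the lowest share among all oxidative phosphorylation genes.

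**Figure D3:**
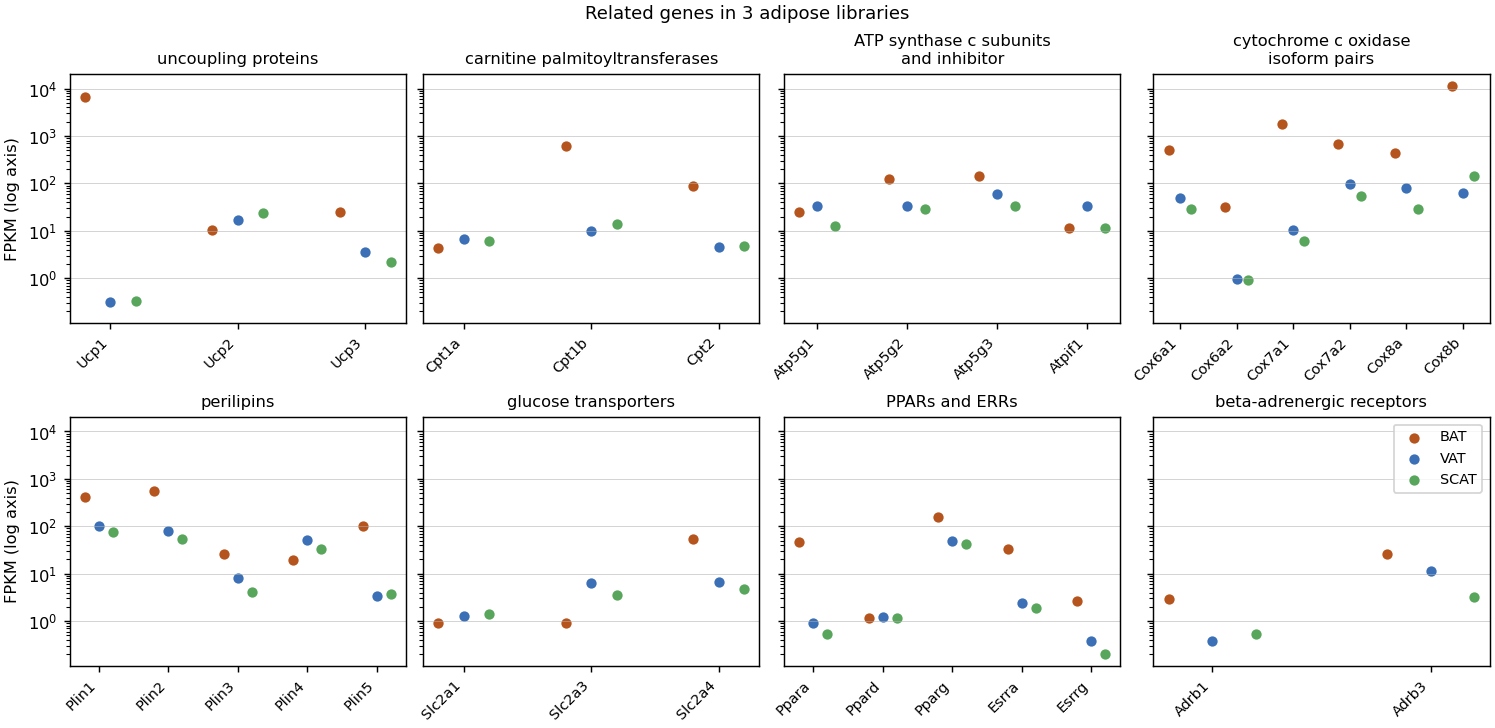
FPKM (log axis) of related genes in BAT, VAT and SCAT, 1 point per library. Within a family some members were far higher in BAT (Ucp1, Cpt1b, Cox8b, Plin5, Slc2a4, Ppara) and others lay near or below the white depots (Ucp2, Cpt1a, Atp5g1, Plin4, Slc2a1, Ppard).

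The enzymes that feed the chain were higher in BAT too. In the citric acid cycle, 22 of 23 genes (95.7%) were counted higher in BAT, with a median log2 ratio of 3.96, and the share over all protein-coding genes was 8.7%. Sucla2, a subunit of the succinyl-CoA synthetase that makes ATP, had 1127 FPKM in BAT, 33.2 in VAT and 26.4 in SCAT, and Idh3a, of the NAD-linked isocitrate dehydrogenase, had 484, 18 and 10.9. The exception was Pcx, pyruvate carboxylase, which refills the cycle, with 73.9 FPKM in BAT, 38.5 in VAT and 14.4 in SCAT. In fatty acid oxidation, 26 of 30 genes (86.7%) were counted higher, set against the same 8.7%, with a median of 4.09. Hadhb, of the trifunctional enzyme, had 2952 FPKM in BAT, 85.2 in VAT and 56.5 in SCAT, at a locus merged with Garem2. Acadvl, the first enzyme for long chains, had 1031, 22.9 and 21.

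Entry of fatty acids into mitochondria differed by isoform. Cpt1b, the muscle form of the outer membrane transferase, had 606 FPKM in BAT, 9.95 in VAT and 13.7 in SCAT, at a locus merged with Chkb. Cpt1a, the liver form, had 4.37 FPKM in BAT, 6.76 in VAT and 6.12 in SCAT, at a locus merged with Mtl5. So BAT was 5.46 above the higher white depot for Cpt1b and 0.62 below it for Cpt1a on the log2 scale. Uptake genes of all adipocytes differed less: Cd36 had 1929 FPKM in BAT, 1226 in VAT and 602 in SCAT, and Slc27a1 66.3, 40.7 and 23.6. Among mitochondrial carriers, 12 of 20 (60%) were counted higher, against 8.7% of all protein-coding genes, and 8 with median ratio scaling. Of the uncoupling proteins, Ucp3 had 25.2 FPKM in BAT, 3.54 in VAT and 2.22 in SCAT, while Ucp2, which is high in immune cells, had 10.2, 16.9 and 23.9.

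Fat synthesis was also higher in BAT. Of 24 lipogenesis genes compared, 16 (66.7%) were counted higher, against 8.7% of all protein-coding genes, with a median log2 ratio of 2.72. Fasn, fatty acid synthase, had 427 FPKM in BAT, 16.1 in VAT and 4.07 in SCAT. Elovl6, which lengthens its product, had 194, 6.03 and 1.83. Gpd1, which makes glycerol 3-phosphate for triglycerides, had 865, 15.4 and 21. The desaturase Scd2 was high in all 3 depots, with 2371 FPKM in BAT, 1049 in VAT and 639 in SCAT. Fads1 and Fads2, the desaturases of polyunsaturated fatty acids, were below both white depots, with 1.67 and 2.15 FPKM in BAT against 6.55 and 18.1 in VAT and 2.67 and 3.78 in SCAT.

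Genes of the lipid droplet and of lipolysis differed less. Of 24 genes, 9 (37.5%) were counted higher in BAT, against 8.7% of all protein-coding genes, with a median of 1.64, and with median ratio scaling 6 were, with a median of 1.00. Plin5, the droplet protein that tethers mitochondria, had 102 FPKM in BAT, 3.35 in VAT and 3.73 in SCAT. Plin4, a droplet protein of white adipocytes, had 19.2, 50.3 and 32.6, and was thus on the other side. The lipases Pnpla2 and Lipe, which release fatty acids, had log2 ratios of 1.39 and 1.56. Fabp4, the adipocyte fatty acid carrier and the next compared protein-coding gene by level in BAT, had 9367 FPKM in BAT, 5143 in VAT and 2830 in SCAT. Cidec, a droplet protein of white fat, had 746, 587 and 204, whereas its relative Cidea separated the depots.

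In glucose use, 22 of 31 genes (71%) were counted higher, against 8.7% of all protein-coding genes, with a median of 2.93. Slc2a4, the insulin-responsive transporter, had 54.2 FPKM in BAT, 6.60 in VAT and 4.69 in SCAT. The general transporter Slc2a1 had 0.901, 1.25 and 1.41, and Slc2a3 0.927, 6.47 and 3.46. Pfkl, the liver form of phosphofructokinase, had 169 FPKM in BAT, 7.61 in VAT and 3.89 in SCAT. Gys2, the liver form of glycogen synthase, had 37.9, 1.5 and 0.596. The mitochondrial pyruvate carrier genes Mpc1 and Mpc2 had 683 and 432 FPKM in BAT and log2 ratios of 3.37 and 3.23. Pdk4, which closes pyruvate dehydrogenase when fat is burned, had 796 FPKM in BAT, 75.7 in VAT and 58.6 in SCAT.

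**Figure D4:**
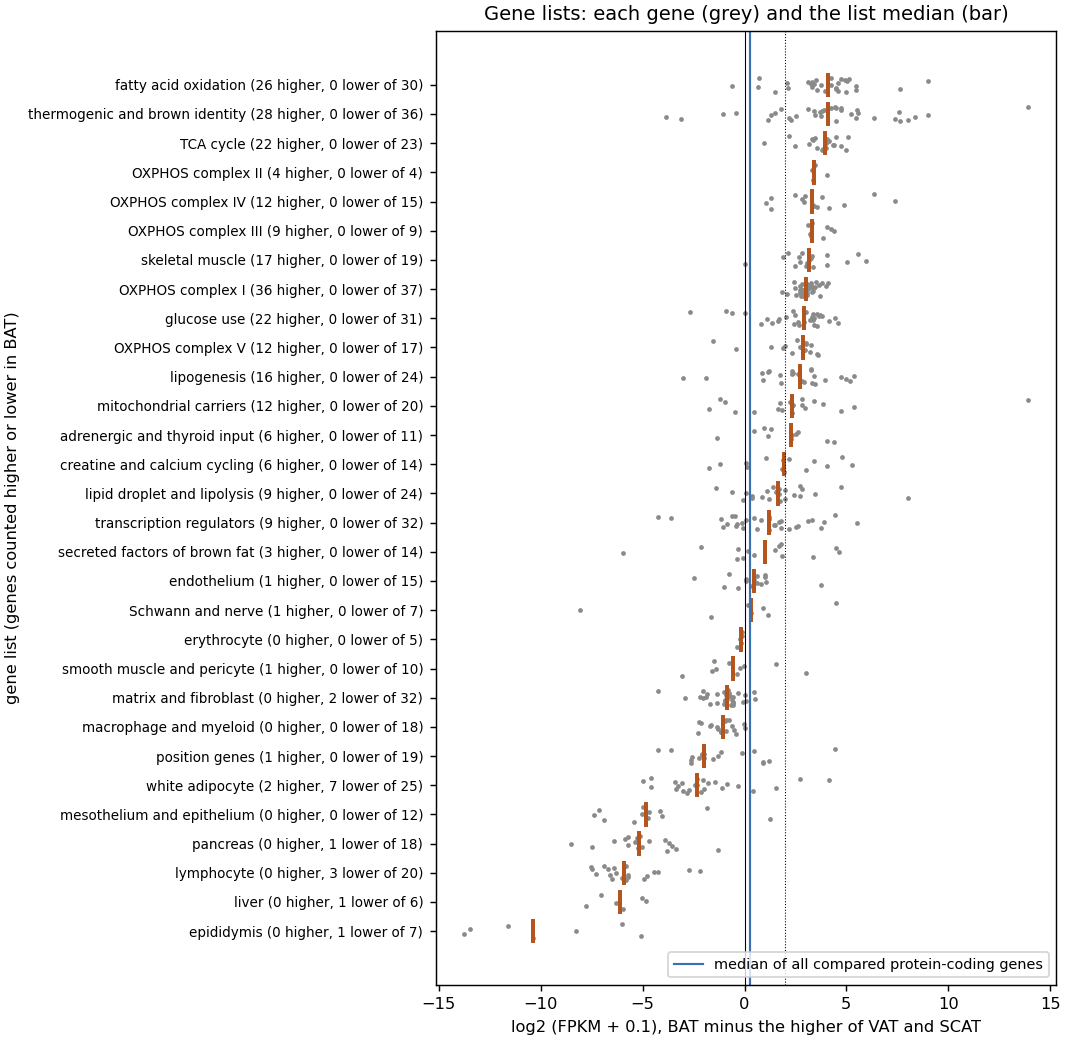
Log2(FPKM + 0.1) in BAT minus that in the higher white depot for every compared gene of 30 lists (grey points) with the list median (bar); the solid line is 0, the dotted line the 4-fold limit and the blue line the median of all protein-coding genes. Fatty acid oxidation, thermogenic and citric acid cycle lists lie near 4, and lymphocyte, pancreas, liver and epididymis lists lie below -5.

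White adipocyte genes were counted lower in BAT more often than higher. Of 25 genes, 7 (28%) were counted lower, against 0.951% of all protein-coding genes, 2 (8%) higher, against 8.7%, and 16 neither. With median ratio scaling 12 were counted lower. The median log2 ratio before scaling was -2.33 against the higher and -0.98 against the lower white depot. This list too was made of genes known for their depot, so its direction is no independent evidence. The 7 were Lep, Retn, Mest, Sfrp5, Cfd, Ccdc80 and Wfdc21. Cfd, the complement protease adipsin, had 1963 FPKM in VAT, 2241 in SCAT and 336 in BAT. Retn, which codes for resistin, had 206 in VAT, 82.0 in SCAT and 19.5 in BAT. Mest, an imprinted gene of growing fat cells, had 53.3, 24.9 and 5.44. All of these 3 were present in BAT but at a fraction of either white depot. The exceptions were Slc36a2, an amino acid transporter, with 138 FPKM in BAT, 5.95 in VAT and 7.69 in SCAT, and the lipoprotein receptor Vldlr with 65.7, 9.81 and 4.80. Matrix and fibroblast genes showed a smaller difference. BAT lay below both white depots for 21 of 32, where over all protein-coding genes it did for 22.2% and 0.951% were counted lower, with a median of -0.85, or -1.45 with median ratio scaling, and 2 (6.25%) were counted lower, Dpp4, a peptidase of fat progenitors, and Thbs1, a matrix glycoprotein.

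Among the 15 protein-coding genes with the largest excess of the lower white depot over BAT, several are genes of immune or epithelial cells. Jchain, of secreted antibodies, had 89.0 FPKM in SCAT, 21.9 in VAT and 0.991 in BAT. Cd52, a surface protein of lymphocytes and of the epididymis, had 413 in VAT, 129 in SCAT and 6.56 in BAT. Ehf, an epithelial factor, had 18.6 in VAT, 1.75 in SCAT and was listed at 0 in BAT. Clu and C6 act in the complement system. Clu, an abundant chaperone, had 162 FPKM in VAT, 68.0 in SCAT and 3.29 in BAT, and C6, of the membrane attack complex, had 7.8, 3.58 and 0.0747. Dapl1 headed the list, with 5.47 FPKM in VAT and 8.60 in SCAT and listed at 0 in BAT. Of the 245 named genes counted lower, 92 (37.6%) were immunoglobulin gene segments, 85 of them with SCAT above VAT. These segments made up 155 (1%) of the 15423 names compared, and 59.4% of them were counted lower.

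Markers of other tissues differed strongly between the 3 libraries. Lymphocyte genes summed to 610 FPKM in SCAT, 67.8 in VAT and 9.69 in BAT over 20 genes, and SCAT lay above VAT for all 20. The B cell gene Cd79a had 35.6 FPKM in SCAT, 0.962 in VAT and 0.129 in BAT. Genes of the exocrine pancreas summed to 219 FPKM in SCAT, 11.9 in VAT and 9.59 in BAT. Both lists were highest in SCAT. VAT held genes of the epididymis, which summed to 2988 FPKM there, 2.14 in SCAT and 0.136 in BAT, with 15 of 16 listed at 0 in BAT. Epithelial genes summed to 77.5 FPKM in VAT, 2.62 in SCAT and 3.76 in BAT, and 6 liver genes to 392, 9.10 and 4.04. Of the 10 genes with the largest ratio of VAT over SCAT, Spink8 had 1071 FPKM in VAT, 0.119 in SCAT and 0 in BAT, and Lcn5, an epididymal lipocalin, had 1119, 0.308 and 0. Of the 10 in the other direction, Marco, a scavenger receptor of macrophages, had 52.3 FPKM in SCAT, 0.689 in VAT and 0 in BAT. In bulk tissue fewer cells of a type and less RNA per cell cannot be told apart, and the part of these cells in the counts against BAT was not tested. Without the marker genes of pancreas, lymphocytes, epididymis and epithelium, 240 of the 245 named genes lower in BAT were left, and 149 without the immunoglobulin gene segments as well, an alternative added after seeing the data.

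**Figure D5:**
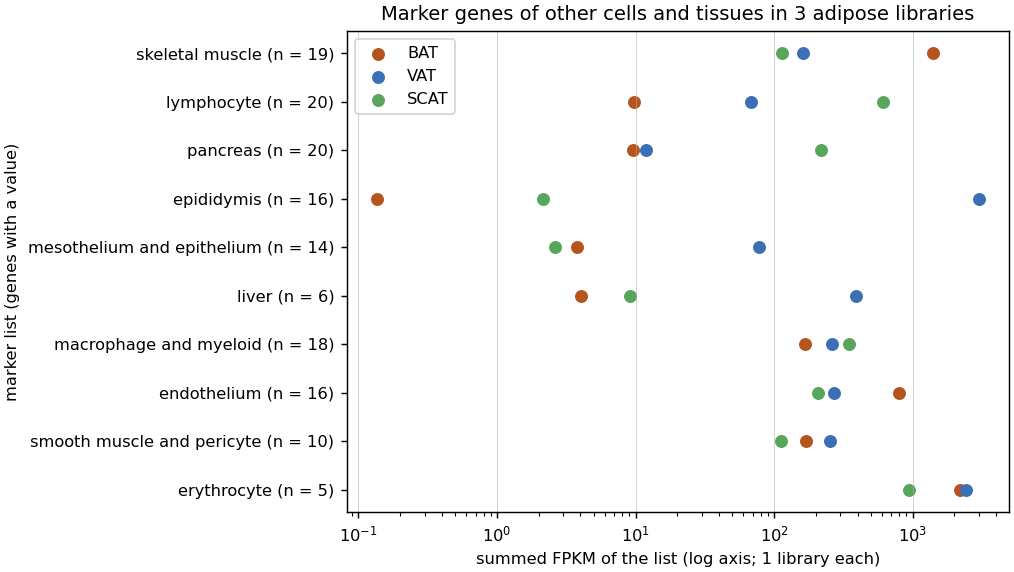
Summed FPKM (log axis) of marker genes of other cells and tissues in BAT, VAT and SCAT, 1 library each, with the number of genes that have a value. Skeletal muscle genes were highest in BAT, lymphocyte and pancreas genes in SCAT, and epididymis, epithelium and liver genes in VAT, while erythrocyte and myeloid genes lay within a factor of 3.

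Several genes that were high in both BAT and liver are given here with their liver values, beside those of liver marker genes. Over 5 liver genes with a liver value, VAT held between 0.559% and 0.850% of the liver FPKM, with 0.850% for Ttr. Slc27a2, a transporter and ligase of very long fatty acids, had 119 FPKM in BAT, 6.09 in VAT, 0.189 in SCAT and 941 in liver, so VAT held 0.648% of liver. Kng2, a kininogen gene, had 45.9 FPKM in BAT, 1.73 in VAT and 0.0710 in SCAT, and VAT held 0.916% of liver. Elovl3, which lengthens very long fatty acids, had 165 FPKM in BAT, 0.391 in VAT and was listed at 0 in SCAT, and VAT held 0.597% of liver. All 3 genes were counted higher in BAT. These genes were chosen after their values were seen, and others had larger VAT shares of liver, such as Pank1 with 6.08% and Etfdh with 7.65%. Acaa1b, a peroxisomal thiolase, was not, with 35.6 FPKM in BAT, 12.5 in VAT, 1.02 in SCAT and 673 in liver, a share of 1.86% in VAT. The part of liver RNA in these VAT values was not tested. Kng1, the liver kininogen gene, had 7.67 FPKM in VAT, 0.0227 in BAT and 0.132 in SCAT.

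Skeletal muscle genes were higher in BAT than in the white depots. Of 19 compared, 17 (89.5%) were counted higher, against 8.7% of all protein-coding genes, with a median log2 ratio of 3.14, and the sum was 1410 FPKM in BAT, 162 in VAT and 114 in SCAT. Measured against the muscle library they fell into different ranges. Ckm, muscle creatine kinase, had 166 FPKM in BAT, 9.86 in VAT, 1.70 in SCAT and 8592 in muscle, so BAT held 1.93% of muscle. Over the 17 list genes with a muscle value the median share was 1.68%, with 1.02% for the fast myosin Myh1. The slow-fibre genes named here had larger shares. Of these, Myl2, Tnni1 and Myl3 were named for their large excess in BAT over white fat, which favours a large share. Myl3 had a share of 15.3%. Myl2, the slow regulatory light chain, had 82.7 FPKM in BAT, 0.0577 in VAT, 0.0420 in SCAT and 335 in muscle, a share of 24.7%. Tnni1, slow troponin I, had 31.7 FPKM in BAT, 0.0281 in VAT, 0.287 in SCAT and 135 in muscle, a share of 23.6%. The slow genes Tnnt1 and Myh7 had shares of 36.7% and 19.3%. The shares of these slow-fibre genes were all above those given for Ckm and Myh1. No fixed lists of slow and fast genes were compared. Myoglobin (Mb) was nearly even, with 32.5 FPKM in BAT, 32.1 in VAT and 21.7 in SCAT.

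Some genes counted higher in BAT, energy genes included, were far higher still in muscle. Of the 1107 protein-coding genes counted higher in BAT, 102 (9.21%) were at least 10 times higher in muscle than in BAT. The same share over all protein-coding genes was not computed. Without such genes 1188 of the 1303 named genes were left. Among the 102 were Cox6a2, the muscle form of subunit 6a, with 3.95% of the muscle value in BAT, and Pfkm, muscle phosphofructokinase, with 3.01%. Pygm, muscle glycogen phosphorylase, had 1.65%, and Ckmt2, mitochondrial creatine kinase of muscle, had 3.28%. The calcium pump Atp2a1 had 1.68%. Cox8b had 225% of muscle, Cox7a1 204%, Fabp3 145% and Cpt1b 264%, so these genes were higher in BAT than in muscle itself. The part of muscle RNA in the counts was not tested. Of the creatine and calcium cycling genes, 6 of 14 (42.9%) were counted higher in BAT, against 8.7% of all protein-coding genes, and Ckb, the creatine kinase of brown fat, had 9.81 FPKM in BAT, 8.94 in VAT and 3.23 in SCAT.

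Across all 7 tissues, BAT held the highest value for 676 of 1101 protein-coding genes counted higher in it that had a value in each library (61.4%), and skeletal muscle for 282 (25.6%). Over all compared genes, the shares were 18% for BAT and 25.8% for muscle. The counting rule keeps VAT and SCAT from being highest among genes counted higher in BAT. The BAT share among them is thus partly set by the rule. At least 4-fold above all 6 other libraries were 110 of the 1107 (9.94%). Among the genes counted lower in BAT, VAT was highest of 7 for 41 of 119 (34.5%), SCAT for 27 (22.7%) and liver for 24 (20.2%), against 6.34%, 9.94% and 15.3% over all compared genes. For these genes the counting rule keeps BAT from being highest and favours a white depot. The VAT and SCAT shares are thus partly set by the rule.

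Of 18 macrophage and myeloid genes, 0 were counted in either direction, against 8.7% higher and 0.951% lower over all protein-coding genes. BAT lay below both white depots for 15 of them, where over all protein-coding genes it did for 22.2%. Their median log2 ratio was -1.05, or -1.70 with median ratio scaling. The endothelial list had a median log2 ratio of 0.44, which turned to -0.22 with median ratio scaling, and its 1 counted gene, Egfl7, lies at a locus merged with Fam69b and Gm20532. Pecam1, an adhesion molecule of vessels, had 26.6 FPKM in BAT, 20.0 in VAT and 25.2 in SCAT. Of factors that brown fat is known to secrete, 3 of 14 (21.4%) were counted higher, Angptl8, Kng2 and S100b, against 8.7% of all protein-coding genes. S100b, a calcium-binding protein that promotes sympathetic innervation of brown fat, had 23.3 FPKM in BAT, 0.941 in VAT and 0.877 in SCAT. Nrg4, a growth factor from brown fat, had 70.7, 24.8 and 17.0, a log2 ratio of 1.51. Vegfa, the vessel growth factor, had 79.8, 24.6 and 22.3.

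Of the 872 lncRNAs compared, 59 (6.77%) were counted higher in BAT and 6 (0.688%) lower, against 8.45% and 1.59% of all named genes. Gm10032 had 22.8 FPKM in BAT, 0.0293 in VAT and 0 in SCAT. Gm15241 had 13.2, 0.128 and 0.0234. H19, an imprinted transcript of growing tissue, had 23.6 FPKM in BAT, 0.624 in VAT, 0.552 in SCAT and 207 in muscle. Gm16537 had 1032 FPKM in BAT, 19.0 in VAT and 28.2 in SCAT, and its locus has the bounds of the Gpd1 locus, whose values ran alongside at 865, 15.4 and 21. In the same way Pitx3, a factor of lens and midbrain with a log2 ratio of 8.46, shares the bounds of Elovl3, and had 109 FPKM in BAT, 0.209 in VAT and 0.0140 in SCAT. Of the 1107 protein-coding genes higher in BAT, 797 (72%) have a locus with the bounds of another gene's locus. The same share over all protein-coding genes was not computed, so 72% is not a trait of the genes higher in BAT. Whether reads of such overlapping genes were told apart by strand is not given in the sources used here.

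Promoters of the energy genes were read for 2 short motifs. Sequences of RefSeq promoters (GRCm38.p6, 250 bases before to 50 after each start) were found for 9778 of the 12727 protein-coding genes, and both strands were searched. AAGGTCA, the half-site bound by estrogen-related and other nuclear receptors, was in 3.48% of 12487 windows of all compared genes. It was in 5.27% of 1043 windows of genes higher in BAT, in 2.83% of 106 windows of genes lower in BAT, and in 10 of 125 windows (8%) of the thermogenic, oxidative phosphorylation, citric acid cycle and fatty acid oxidation genes that were higher in BAT. TGACGTC, the core of the cyclic AMP response element, was in 4.96% of all windows, in 5.18% of those of genes higher in BAT, in 1.89% of those of genes lower in BAT and in 10.4% of those of the energy genes. The motifs can share no more than an end base. Of the 10 windows, 4 were picked as examples, in which AAGGTCA and 10 bases on each side lie before the start. Others of the 10 may meet this condition too, so the 4 are not a complete set. They show what such sites look like in genes of a transporter and of complex I. The sites are given here 5′ to 3′ on the strand of the motif, in capitals.
Slc27a2, chr2:126552794-126552820, minus strand: ccacgttgaaAAGGTCAaaggcgtggt
Ndufs5, chr4:123718398-123718424, plus strand: ctacttgagcAAGGTCAcactcgagaa
Ndufb4, chr16:37654407-37654433, minus strand: cctgagcctgAAGGTCAgactcgagag
Ndufb2, chr6:39592374-39592400, plus strand: gagcagcagtAAGGTCAgccaagagca
The log2 ratio of BAT over the higher white depot was 4.27 for Slc27a2, 2.82 for Ndufs5, 2.78 for Ndufb4 and 2.74 for Ndufb2, whose locus is merged with Adck2 and Gm42420. A match describes these letters only and says nothing of binding.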

How the data were processed

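Total RNA libraries of 7 tissues were used, 1 per tissue, and BAT, VAT and SCAT were compared. Per the study's methods, the authors removed adapters with flexbar and ribosomal RNA reads with Bowtie2 2.2.9, aligned to GRCm38 (mm10) with STAR 2.6.0c, and assembled, merged and quantified transcripts with Cufflinks 2.2.1. The authors deposited one FPKM per locus and library in 21 pairwise comparisons; it was the same in each comparison. The comparison columns (log2 fold change, test statistic, p and q values) were not used. Names were split on commas, the locus with the highest FPKM over 7 libraries stood for a name, 151 loci with status FAIL were dropped, and zeros with status LOWDATA were treated as missing, which left out 36 names. Because some loci carry several names, 1303 names higher in BAT are 1214 loci. A pseudocount of 0.1 FPKM was added before log2 (Python 3.11.15, pandas 2.3.3, NumPy 2.4.6), which understates differences of low genes. Biotypes came from GENCODE or RefSeq for 15169 of 15423 compared names (98.4%). Named genes were Ucp1, Cidea, members of 30 lists, the 15 protein-coding genes and 5 lncRNAs with the largest ratio each way, the 10 highest in BAT, and the 10 with the largest ratio between white depots each way (at least 10 FPKM). The members and lists were chosen with earlier results of these data known. List members without a value after these steps, among them Cox4i1, Acsl1 and Scd1, were not compared. The counting rule was run on simulated data with shifts well above the 4-fold limit. That run checks the code and says nothing of error in libraries without replicates. Alternatives are in the closing section.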

Additional observations from a re-analysis of the deposited data

Results flagged for a closer look

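Loci without a gene name took no part in the comparisons. Of 1135 such loci with at least 1 FPKM in BAT, VAT or SCAT, 157 (13.8%) were at least 4-fold higher in BAT than in both white depots and 30 (2.64%) were lower, against 8.45% and 1.59% of named genes. They are listed here because they carry signal in data that the report does not use.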

How the results depend on the processing

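No paired analysis was possible because each tissue has 1 library. Of 131 recomputed values, 98 kept within 1.5 times of the reported count or on the same side of the limit, among them both log2 ratios, Ucp1 and Cidea, under 3 alternatives each. Counts of genes higher in BAT (1303) became 3761 at 2-fold, 514 at 8-fold, 771 with median ratio scaling, 706 for names with a single locus (fewer names tested), 2298 over the lower white depot and 2172 over SCAT alone. Counts of genes lower in BAT (245) became 77 with a pseudocount of 1, 76 at 5 FPKM, 423 with no minimum, 616 at 2-fold, 137 at 8-fold, 447 with median ratio scaling, 80 for names with a single locus, 2047 against the higher white depot, 121 for protein-coding genes only, 149 without immunoglobulin gene segments and markers of other tissues, 1154 against VAT alone and 1138 against SCAT alone. White adipocyte genes lower in BAT (7) became 12 at 2-fold, 1 at 8-fold, 12 with median ratio scaling, 2 for names with a single locus, and 15 against the higher white depot or VAT alone. Matrix genes lower in BAT (2) became 1 with a pseudocount of 1, 5 at 2-fold, 0 at 8-fold, and 5 against the higher white depot or VAT alone. Oxidative phosphorylation genes higher in BAT (73) became 45 at 8-fold. With a single locus per name, 15 thermogenic, 15 fatty acid oxidation and 14 citric acid cycle genes were counted. The references of VAT alone, SCAT alone, protein-coding genes only, no immunoglobulin segments and the locus chosen over the 3 adipose libraries were added after seeing the data. Apart from what each alternative tests or counts by construction, the cause was not tested. Depth is unknown, so how many low values rest on few fragments cannot be said.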
